A study of Tursiops truncatus with 28 samples.

Results

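The locus with the highest mean level in bottlenose dolphin skin was listed as NW_017844407.1:34010-36278, 1 of 24091 loci in the deposited table. It was chosen by its own measured level, as the row with the highest mean FPKM over the 28 libraries, so its high level is a description and was not tested. FPKM is the number of sequenced fragments per unit of transcript length, scaled to the number of fragments mapped in the library. The interval covers positions 34011 to 36278 of scaffold NW_017844407.1 in the NIST Tur_tru v1 genome, 2268 bases counted with the first base as 1. The table carries no gene names and none of its 24091 row names matched the gene table used here, which describes another assembly, so the gene, its exons and its strand were not analysed here. Marker genes of skin cell types could not be looked up for the same reason, and the tissue was taken from the label.

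Skin was archived from wild common bottlenose dolphins (Tursiops truncatus) sampled in Barataria Bay, Louisiana, with a separate animal behind every library. They fell into 9 females of July 2016, 8 females and 3 males of June 2017, and 5 females and 3 males of September 2017. No treatment is named and the ages of the animals are not among the labels. With no males in July 2016, comparisons with that session rest on females and on a sex effect measured in 2017, and its year cannot be told apart from its month.

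Cetacean skin carries a thick epidermis without the hair and glands of most mammals, in which cells divide at the base and are shed at the surface. Keratinocytes of mammalian epidermis make a few structural proteins in very large amounts, and a skin transcriptome is therefore dominated by a small number of RNAs. In whole tissue, more cells that make an RNA and more of that RNA per cell cannot be told apart. FPKM is also a share of the library, so the level of a very abundant locus and the levels of all others are not free of each other.

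The locus held a mean of 50191 ± 6013 FPKM (SD, n = 28), against a median of 11.8 over the 13192 loci kept for testing, those averaging 1 FPKM or more. Its values ran from 38115 to 65036 FPKM, a 1.71-fold range around a median of 49056. It took 5.46% ± 0.713 (SD, n = 28) of the summed FPKM of a library, from 3.75% to 7.09%. A transcript can be no longer than the interval, so at most 11.4% of mapped fragments on average could have come from it if no further scaling was applied to the table. Summed FPKM lay between 815690 and 1078077 per library. The number of reads is unknown. Relative depth, estimated from the smallest steps of faint loci, varied from 0.762 to 1.48.

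The locus was the most abundant one in 15 of the 28 libraries, the second in 9 and the third in 4. Just behind it by mean level stood the locus at positions 751341 to 772519 of scaffold NW_017843467.1, with 39515 ± 14222 FPKM (SD, n = 28), and then 1 of 515 bases on scaffold NW_017844169.1 (35881716 to 35882230), with 24672 ± 42610. The former lay above the most abundant locus in 9 libraries and the latter in 4. A 69-base mitochondrial locus at positions 14122 to 14190 of NC_012059.1, listed at 0 in 17 libraries, lay above it in 3. Of the 10 loci with the highest means, the most abundant one had the lowest coefficient of variation, 12.0%, close to the 12.7% of the locus of rank 4. After median of ratios scaling these values were 12.4% and 12.6%. The median over the 10 was 31.9%. Among the 116 loci averaging 1000 FPKM or more, 17 varied less, and the median coefficient of variation was 17.4%.

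**Figure D1:**
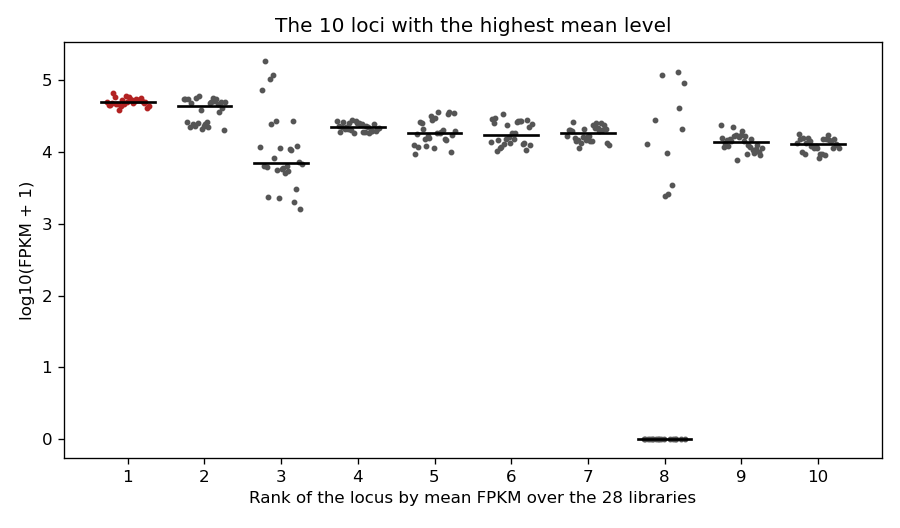
Level of the 10 loci with the highest mean FPKM in each of the 28 libraries (points, vertical axis log10(FPKM + 1)), in order of mean level, with a bar at the median. The locus of rank 1, in red, keeps within a 1.71-fold range, while that of rank 3 spreads far more widely and that of rank 8, the 69-base mitochondrial locus, is listed at 0 in 17 libraries.

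No difference in level between the 3 sessions passed the threshold at this locus. In July 2016 the 9 females held between 38115 and 60027 FPKM, with a median of 52311. In June 2017 the 8 females held between 47949 and 55545, with a median of 52003, and the 3 males 45108, 45288 and 47779. In September 2017 the 5 females held 40912, 43243, 48882, 57695 and 65036, and the 3 males 45834, 46228 and 46843. The ranges of the sessions overlap throughout, and the highest and the lowest library of 2017 are both September females.

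Group means were 50968 ± 6968 FPKM in July 2016 females (SD, n = 9), 51724 ± 2655 in June 2017 females (n = 8) and 51154 ± 10101 in September 2017 females (n = 5). With session and sex in a limma model of all tested loci, the log2 difference of June 2017 minus July 2016 was 0.027 (SE 0.0811, adjusted p = 0.892), a 1.02-fold change with a 95% interval from 0.908 to 1.14. For September 2017 minus July 2016 it was 0.0049 (SE 0.0899, adjusted p = 0.988), with an interval from 0.883-fold to 1.14-fold. September minus June 2017 gave -0.022 (SE 0.0808, adjusted p = 0.943), from 0.878-fold to 1.10-fold. In these 3 comparisons 7.24%, 1.95% and 0.0379% of the 13192 tested loci were called at an adjusted p under 0.05, and the most abundant locus was in none of these lists. Exact permutation tests over the females alone gave two-sided p = 0.698, 0.980 and 0.732. Session differences beyond about 1.14-fold in either direction therefore lie outside the intervals of this limma fit, which leave room for smaller ones. Other settings can give wider intervals. Without the robust setting of limma the SEs of the 3 comparisons were 0.0948, 0.105 and 0.0944 in the same order. The size of difference that these libraries could detect was not measured.

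No difference between the sexes passed the threshold. In deposited FPKM the 6 males held 46180 ± 1006 (SD), against 51505 ± 6181 in the 13 females of 2017. After median of ratios scaling the males held 47263 ± 3969 and ran from 42792 to 54384, against 51689 ± 6604 in the females. In June the highest male lay at 47779 FPKM and the lowest female at 47949, but after that scaling June male 3 lay above 7 of the 8 females. In September the 3 males fell inside the range of the females on both scales. Between the sexes the log2 difference was -0.15 for males minus females (SE 0.0858, unadjusted p = 0.101, adjusted p = 1 by limma), a ratio of 0.904 with an interval from 0.800 to 1.02. An exact permutation test within the 2017 sessions gave p = 0.101, two-sided. On the 5 sampling days that held both sexes (6 males and 8 females) the log2 difference within days was -0.12. Males were lower on 4 of the 5 days (exact permutation test within days, two-sided p = 0.245). After median of ratios scaling the difference within days was -0.078, with males lower on 3 of the 5 days (same exact permutation test, p = 0.491). The comparison within days was added after the values were seen. The sex comparison called 0.091% of tested loci, and the most abundant locus was not among them. The June to September change did not differ between the sexes past the threshold either (log2 difference of changes 0.044, SE 0.176, adjusted p = 1, limma), with an interval from 0.803-fold to 1.32-fold.

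**Figure D2:**
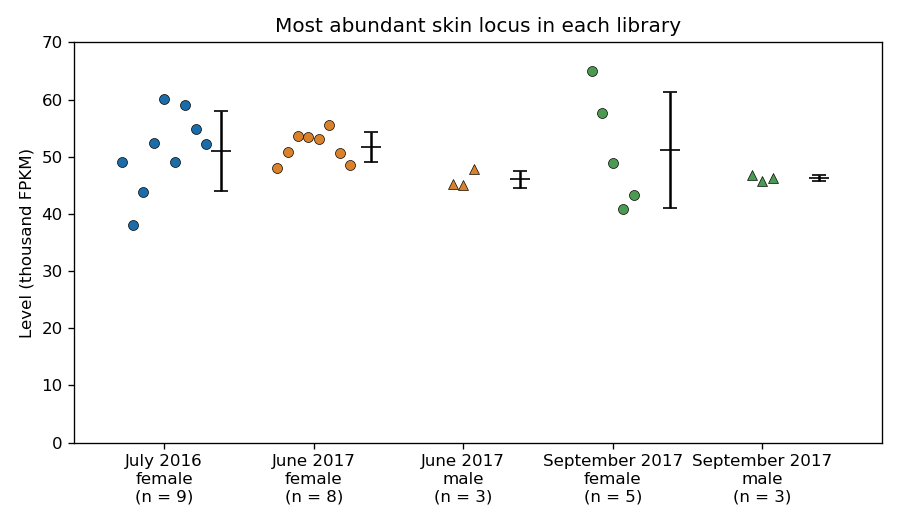
Level of the most abundant locus in units of 1000 FPKM for each library (circles for females, triangles for males), with the mean and SD of each group beside the points. The groups overlap between sessions, the males, in deposited FPKM, lie between 45108 and 47779 FPKM, and the September 2017 females spread from 40912 to 65036.

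The spread of the level among females differed between June and September 2017. In these females the coefficient of variation was 13.7% in July 2016, 5.13% in June 2017 and 19.7% in September 2017. The mean absolute deviation of the log2 level from the session median was 0.149, 0.0618 and 0.217 in the same order. It was larger in September than in June 2017 (exact permutation test, two-sided, p = 0.00932, adjusted p = 0.0280 over 3 pairs of sessions). Differences in spread between July 2016 and June (exact permutation p = 0.106) and between July and September (exact permutation p = 0.420) did not pass. This comparison of spreads was added after the values were seen. Deviations were taken from the median of each group before labels were permuted, so the p values for spread are approximate. The males did not show the female pattern, with a coefficient of variation of 3.24% in June (n = 3) and 1.10% in September (n = 3) in deposited FPKM. After median of ratios scaling the males had 11.9% in June and 2.02% in September, and the females 5.21% and 21.2%. With males included, and deviations taken from the median of each session and sex, the June to September difference had an exact permutation p of 0.0858. Without July 2016 female 4 or 9 the July to June difference had p = 0.0326 and 0.0323 (exact permutation tests). After median of ratios scaling it had an exact permutation p of 0.0390. These p values were not adjusted over pairs of sessions. July female 9, at 52311 FPKM, is the July median itself, and female 4, at 52376, lies next to it. Leaving out either library takes away one of the smallest deviations and so raises the mean deviation of July.

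Only 5 listed loci lie on scaffold NW_017844407.1, none overlaps the most abundant one, and its left neighbour is the seventh most abundant locus of the table. This neighbour, at positions 13966 to 14879 and separated from the most abundant locus by 19131 bases, held 18316 ± 4292 FPKM (SD, n = 28), from 11356 to 26166. It lay below the most abundant locus in 28 of 28 libraries, at a mean 36.5% of its mean level. On the other side, after 28487 bases, the locus at positions 64766 to 97716 held 10.3 ± 2.68 FPKM. The outermost loci, at positions 4303 to 6869 and 103536 to 111941, held means of 2.72 and 5.66 FPKM. The right neighbour thus lay near the median of tested loci, and both outermost loci below it.

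The abundant pair had a positive correlation in each session, without a test of the values of r. Pearson's r between the log2 levels was 0.654 in July 2016 (n = 9), 0.484 in June 2017 (n = 11) and 0.688 in September 2017 (n = 8). After session and sex were taken out, r was 0.602, the 12th highest of the 13191 loci set against the most abundant one. Over all libraries without that step r was 0.427 and Spearman's rho 0.399, which placed the neighbour 188th. In the limma fit its slope was 0.87 log2 units per doubling of the most abundant locus (SE 0.237, unadjusted p = 0.00104), and with an adjusted p of 0.687 over all loci it was not called. Without September 2017 female 1, which held the highest level of both loci, that slope was 0.65 (SE 0.256). The r of September 2017 without that library was not computed. Both loci share their libraries, and so their depth and FPKM scale. For the right neighbour r was 0.0269 over the 28 libraries. Another pair of loci of the top 10 that shares a scaffold, NW_017843746.1, had r = 0.777 with each other.

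The left neighbour differed between July 2016 and June 2017, a comparison in which the most abundant locus was not called. It rose from 14873 ± 1842 FPKM in July 2016 females (SD, n = 9) to 22603 ± 2160 in June 2017 females (n = 8), and the June males held 19328, 20019 and 20383. Every June library, at 19328 or more, lay above every July library, at 16891 or less. In the limma fit the log2 difference, June 2017 minus July 2016, was 0.59 (SE 0.112, adjusted p = 0.00169), and this neighbour was among the 7.24% of loci called in that comparison. September 2017 females held 12264, 13456, 15781, 21050 and 26166 FPKM, the September males 14002, 14623 and 21092, and they overlapped both other sessions. The log2 difference of September minus July was 0.23 (adjusted p = 0.386, limma), and that of September minus June 2017 was -0.37 (adjusted p = 0.177).

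The ratio of the neighbour to the most abundant locus, which no scaling between libraries can change, separated July 2016 from June 2017. It was 0.294 ± 0.0334 in July females (SD, n = 9), from 0.244 to 0.344, and 0.438 ± 0.0444 in June females (n = 8), from 0.372 to 0.491. The groups do not overlap. The log2 ratio was 0.58 higher in June (exact permutation test, two-sided, p = 4.11e-05, the smallest the 24310 arrangements can give, and adjusted p = 0.000123 over 3 pairs of sessions). In September females the ratio was 0.344 ± 0.0703 (n = 5), lower than in June by exact permutation test (p = 0.0124, adjusted p = 0.0186). Against July the exact permutation p was 0.107, and 0.0420 without September 2017 female 2. The ratio was examined after the session differences of both loci were seen.

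**Figure D3:**
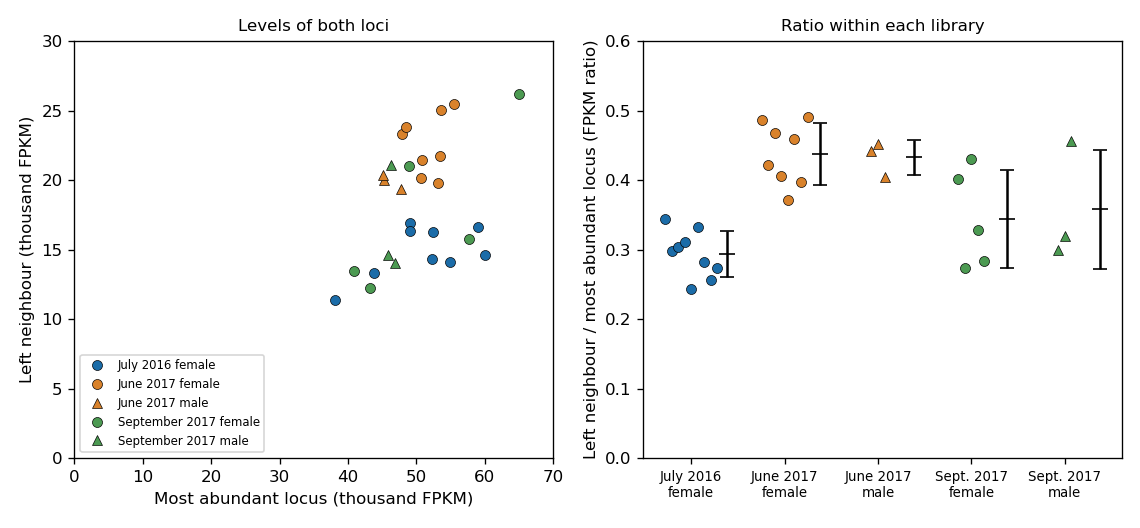
Left, level of the left neighbour against the most abundant locus in each library, both in units of 1000 FPKM. Right, the FPKM ratio of neighbour to most abundant locus in each library (circles for females, triangles for males) with the mean and SD of each group, in which every June 2017 value lies above every July 2016 value.

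Across the genome no locus was called as rising or falling with the most abundant one. The log2 level of each of the other 13191 tested loci was fitted on that of the most abundant locus with session and sex as further terms (limma, Benjamini-Hochberg). Of these, 0% were called (0 loci), and the smallest adjusted p was 0.235. Without adjustment, 878 loci (6.66%) had p under 0.05, 394 with a positive and 484 with a negative slope. The standard error of a slope had a median of 0.361 log2 units per doubling. A locus that followed the most abundant one in proportion would have a slope of 1. The left neighbour, with a slope of 0.87 (SE 0.237), had an adjusted p of 0.687 by limma. A locus with a slope near 1 could thus be missed, and the count of 0 does not show that no locus follows the most abundant one. Correlations over the 28 libraries were centred on a median r of -0.0047, with the middle 90% of loci between -0.332 and 0.333. Of all tested loci, 59 had r above 0.5 and 47 below -0.5.

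The share of loci with an unadjusted p under 0.05 differed between classes of level, which were set after the fit was seen and not tested against each other. Of the other 115 loci averaging 1000 FPKM or more, 28 had such a p, or 24.3%, and 24 of the 28 had a positive slope. At 100 to 1000 FPKM the share was 9.96% (80 of 803), and at 1 to 5 FPKM it was 5.91% (223 of 3773). After median of ratios scaling the shares in the same order were 33.0%, 16.1% and 6.36%. These 24 were 6 of the 9 mitochondrial and 18 of the 106 nuclear loci in the class. The median standard error of a slope was 0.259 in the most abundant class and 0.514 in the faintest. No locus of any class was called after adjustment.

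The loci most like it were chosen by r over the 28 libraries, so the values that follow describe them and test nothing. Highest, with r = 0.712 and Spearman's rho 0.605, was a locus of 1148 bases at positions 264315 to 265462 of scaffold NW_017843074.1. It held 21.6 ± 16.6 FPKM (SD, n = 28), from 0 in July 2016 female 2, where the most abundant locus was also at its lowest, to 65.2. Its r was 0.778 in July 2016, 0.639 in June 2017 and 0.776 in September 2017. Its swings were far wider than those of the most abundant locus, with a slope of 5.45 log2 units per doubling (SE 1.04) that was 3.61 without July 2016 female 2. With quantile normalization that slope was 0.494 (SE 0.563). Next came a locus spanning 184100 bases, introns included, at positions 1418182 to 1602281 of scaffold NW_017842456.1, with r = 0.626 and rho 0.627. It held 7.22 ± 1.53 FPKM, from 3.95 to 11.0, with r = 0.916 in July 2016, 0.577 in June 2017 and 0.275 in September 2017. Its slope was 0.99 (SE 0.285), but 0.210 in the 2017 libraries alone, 0.529 with the mitochondrial level as a term and 0.263 with quantile normalization.

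At the other end, the locus at positions 38976188 to 39024259 of scaffold NW_017843712.1 had r = -0.647 and rho -0.607. It held 1.29 ± 0.973 FPKM (SD, n = 28), close to the minimum mean of 1, and overlaps another listed locus, so its fragments may be shared. Its highest value, 4.50 FPKM, was in July 2016 female 2. Another locus, spanning 312610 bases at positions 79610740 to 79923349 of scaffold NW_017844625.1, had r = -0.613 and rho -0.616, with 3.27 ± 0.659 FPKM. Its r was -0.878 in July 2016, -0.598 in June 2017 and -0.245 in September 2017. None of these 4 loci was called between sessions (limma, adjusted p between 0.745 and 0.992). After session and sex were taken out, r was 0.719 and 0.610 for the most like loci, and -0.634 and -0.624 for the least like.

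**Figure D4:**
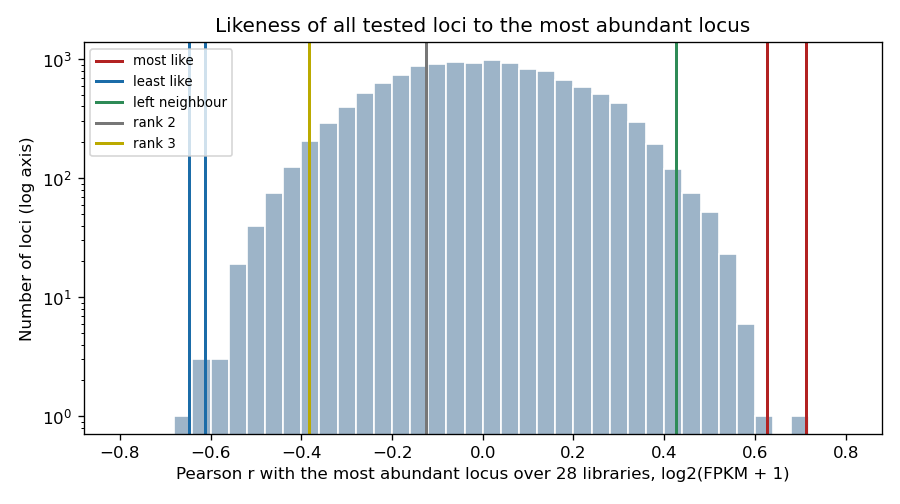
Distribution of Pearson's r between each of 13191 tested loci and the most abundant locus over the 28 libraries (bars, number of loci on a log axis), with lines at the most like and least like loci, the left neighbour and the loci of rank 2 and 3. The bulk lies symmetrically around 0, the named extremes reach 0.712 and -0.647, and the left neighbour stands at 0.427.

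Another 7 measures of a library were set against the log2 level of the locus, and over all 28 libraries none was related to it past the threshold. Mitochondrial RNA, which encodes and serves the cell's respiratory chain, came closest. Summed over 12 mitochondrial loci of at least 500 bases, it gave r = 0.467 and rho = 0.460 (permutation tests, adjusted p = 0.0880 and 0.101 over 7 relations). Without July 2016 females 2 and 5, the libraries farthest from the median, r was 0.288 (permutation p = 0.153). Leaving out the extremes also narrows the range, so the lower r does not show that the pooled value rests on them alone. For relative depth r was 0.296 and rho 0.133 (permutation tests, adjusted p = 0.291 and 0.588).

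Within July 2016 the relation with mitochondrial RNA was close, with r = 0.913 (n = 9, exact permutation p = 6.34e-05, adjusted p = 0.00133 over 21 relations within sessions). Leaving out any 1 of the 9 libraries kept r between 0.890 and 0.939. In June 2017 r was 0.490 (n = 11) and in September 2017 it was -0.119 (n = 8), both short of the threshold. After median of ratios scaling of both levels, r was 0.924, 0.462 and 0.0223 in the same order. Whether the sessions differ in this relation was not tested. Relative depth had r = 0.663 in the same July libraries (exact permutation p = 0.0501, adjusted p = 0.251), and its part in the mitochondrial relation was not tested. These libraries came from several sampling days of July, and the part of the day in that relation was not tested either.

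**Figure D5:**
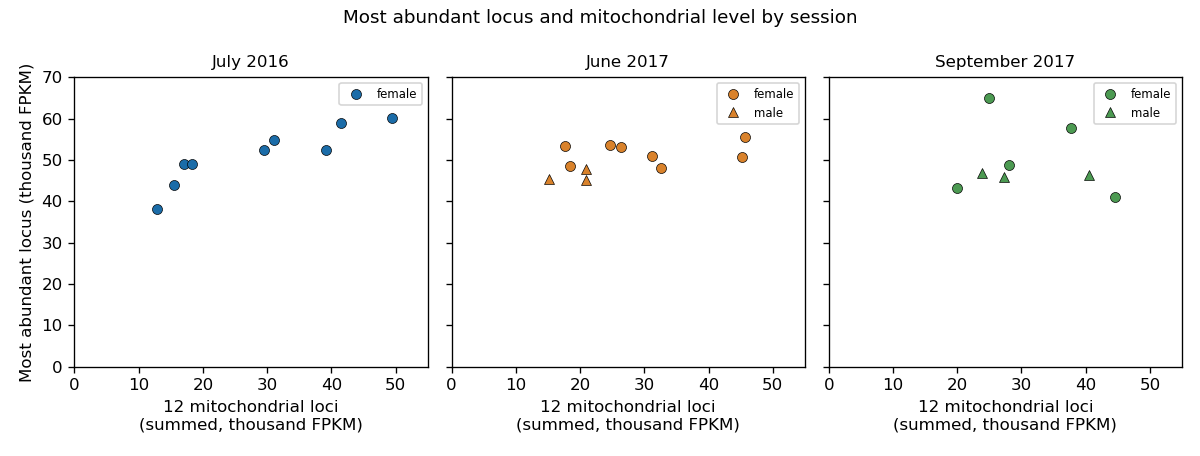
Level of the most abundant locus against the summed level of 12 mitochondrial loci, both in units of 1000 FPKM, in each session (circles for females, triangles for males). The July 2016 points rise together (r = 0.913, n = 9), while those of September 2017 show no common direction (r = -0.119, n = 8).

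Against the other leading loci no relation passed over all libraries. The locus of rank 3, whose level differed 113-fold between libraries, had r = -0.384 and rho = -0.374 (permutation tests, adjusted p = 0.150 and 0.179). In July 2016 its r was -0.803 (n = 9, exact permutation p = 0.0107, adjusted p = 0.113), and -0.526 without July 2016 female 2, which held the highest July level of that locus, 117990 FPKM, beside the lowest of the most abundant one. The locus of rank 2 overlaps another listed locus and had r = -0.126 and rho = -0.0783 (permutation tests, adjusted p = 0.606 and 0.690). Of the other 9 loci in the top 10, 5 had a positive r and 4 a negative one, from -0.384 to 0.427, and the left neighbour was the highest.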

How the data were processed

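Strand-specific RNA-seq libraries were made from total RNA of skin, per the labels' protocols. Cufflinks 2.2.1, TopHat2 2.1.1, Bowtie, Trimmomatic 0.33 and FastQC 0.1 appear in the submitters' processing notes. Tool settings, annotation and use of strand were not given in these sources. The deposited values were taken as FPKM from the authors' Cufflinks step, since the table names no unit. The year in the title of July 2016 female 6 differs from its sampling date, and the date was used. Columns were matched to samples by title, and 0 columns lacked a sample. The member and the lists were chosen with earlier results of these data known.

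Values were used as log2(FPKM + 1), which understates changes at faint loci. The 13192 loci averaging 1 FPKM or more were tested across all loci with limma 3.58.1 in R 4.3.3 (trend and robust settings, 28 libraries, session and sex as terms, 24 residual degrees of freedom before the level term), two-sided, with Benjamini-Hochberg adjusted p under 0.05 as the threshold. The fit was tested on simulated data with known slopes. The simulated slopes other than 0 were all steeper than a proportional one, so detection of a proportional slope was not measured. Single values used exact permutation tests, and correlations over 10 or more libraries used 100000 permutations. Named were the loci ranked 2 and 3, both neighbours, and the 2 highest and 2 lowest by r. A rule for the most variable short locus among the leading ones picked the 69-base mitochondrial locus. The ratio, spread, level classes and sampling-day block were added after the data were seen. Relative depth came from the ratios of low values at 4754 loci. Alternatives covered pseudocount, filter, scaling, short loci, covariates, sets of libraries and the robust setting.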

Additional observations from a re-analysis of the deposited data

Results flagged for a closer look

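In 4 places a library of a named locus stood far from the rest of its group, by the gap to its nearest neighbour relative to the whole range (Dixon's 95% critical value). The gaps were taken on FPKM, and the rule was not applied to log2 values. For normally distributed values about 1 group in 20 is flagged by chance, and 27 groups were examined. FPKM at the locus of rank 3 was skewed, with a mean of 24672 and a median of 6980 over the 28 libraries. The rate of chance flags on FPKM was not measured, so the flags are descriptions. The most abundant locus itself had no such library. At the locus of rank 2, June 2017 female 7 held 35420 FPKM, where the other June females had a median of 49570. At the locus of rank 3, July 2016 female 2 held 118000 FPKM against a median of 7137, and June 2017 female 5 held 27230 against 6309. At the locus at positions 38976188 to 39024259 of scaffold NW_017843712.1, one of the loci least like the most abundant one, July 2016 female 2 held 4.50 FPKM against a median of 0.878. July 2016 female 2 was thus flagged at 2 loci and also held the lowest level of the most abundant locus, 38115 FPKM. The locus on NW_017843712.1 was chosen for its low r with the most abundant locus over these same libraries. That choice favours a high value where the most abundant locus is low, so its flag is not a separate observation.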

How the results depend on the processing

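The count of loci called with the most abundant locus was 0 under all 42 alternatives, 28 of which left out a library, with smallest adjusted p values from 0.0713 to 0.9997 and a share at unadjusted p under 0.05 from 2.80% to 11.8%. That share, 6.66% with all libraries, was 11.8% without September 2017 female 1 and 10.3% without September 2017 female 4. No session or sex difference of the locus passed under any alternative. The log2 difference of June 2017 minus July 2016 turned to -0.0495 with quantile normalization, where a locus of rank 1 to 3 keeps little but its rank, and to -0.0403 without the 3 libraries in which the 10 leading loci took most of the summed FPKM, and ran from -0.0241 to 0.0578 over left-out libraries. September 2017 minus July 2016 turned to -0.00109 with median of ratios scaling, -0.0434 and -0.0219 with a term for mitochondrial level or for relative depth, -0.00404 in females alone and -0.0453 without the same 3 libraries, and ran from -0.0634 to 0.0637 over left-out libraries. September minus June 2017 turned to 0.151 with quantile normalization and 0.0217 without loci under 200 bases, and ran from -0.0793 to 0.0277. Male minus female kept its sign, from -0.194 to -0.100, and was -0.0778 within sampling days after median of ratios scaling. The difference of the session change between the sexes turned to -0.0424 with the mitochondrial level as a term, moved to 0.617 (SE 0.406) with quantile normalization, and ran from -0.0307 to 0.137 over left-out libraries. The cause of these turns was not tested.

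Slopes that changed sign were those of the locus of rank 2 with relative depth as a term (0.148) and in 2017 alone (0.0835), of rank 3 with the mitochondrial level (0.295) and in 2017 alone (1.163), of the right neighbour with median of ratios scaling (-0.0160) and without September 2017 female 1 (-0.245, in a range up to 0.409 over left-out libraries), and of the locus on NW_017844625.1 with quantile normalization (0.00698). The slope of the left neighbour stayed positive throughout, from 0.443 to 1.14. Correlations changed sign for relative depth without the 2 farthest libraries (-0.0288) and in June 2017 (-0.0834), for summed FPKM without the 2 farthest (-0.0390) and in September 2017 (-0.393), for the number of loci above 0 in September (-0.0170), for mitochondrial loci in September (-0.119), for the 69-base locus without the 2 farthest (-0.0276) and in September (-0.450), and for the locus of rank 2 in June (0.375) and September (0.0424). Within July 2016, r passed an unadjusted exact permutation p of 0.05 for mitochondrial loci (0.913), the 69-base locus (0.753) and the locus of rank 3 (-0.803). Over left-out libraries the log2 ratio of the left neighbour differed between July 2016 and June 2017 by 0.544 to 0.609, between July and September by 0.123 to 0.287, and between June and September by -0.453 to -0.289. The difference in spread between July 2016 and June 2017 ran from -0.106 to -0.0485 and was -0.106 with median of ratios scaling, where it passed. That between September and June 2017 was 0.155 in females and 0.0870 with males included, where it did not pass. The slope of the locus on NW_017842456.1 stayed positive, from 0.210 to 1.351, and was 0.460 with pseudocount 10. No paired analysis was possible because every animal was sampled once and the labels give no replicate numbers that link animals. Within sampling days shared by both sexes, male minus female was -0.124 and did not pass. Depth in reads is unknown, so counting error could not be given.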
